A study of Mus musculus with 10 samples.

Results

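Translation initiation and elongation factors are described here in kidney RNA of mice with or without clamping of the other kidney. The members were all probe sets whose only annotated gene symbol starts with Eif or Eef followed by a number, leaving out Eif2s3x and Eif2s3y. The rule used names and no measured value, and it found 114 of 22690 probe sets, belonging to 50 of 12393 genes. Of these, 93 probe sets and 47 genes had a mean signal above the 40th percentile of the arrays and were tested. The 3 genes below it were Eef1aknmt and Eef2kmt, which methylate elongation factors, and Eif2ak4, a kinase of eIF2. Another 6 probe sets carry an Eif symbol together with a second symbol and lie outside the rule, as do the 4 probe sets of Eif2s3x and Eif2s3y.

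A ribosome begins work on an mRNA when eIF2 brings the initiator tRNA to the small ribosomal subunit, where eIF1, eIF1A, eIF3 and eIF5 help to find the start codon and eIF5B joins the large subunit. The cap-binding protein eIF4E, the eIF4G scaffold and the eIF4A helicase bring the mRNA in, and 4E-binding proteins hold eIF4E back while the kinase mTOR is inactive. Kinases that phosphorylate eIF2 lower initiation by blocking its exchange factor eIF2B, a step known from reperfused tissue that arrays, which read RNA, do not measure. During elongation eEF1A delivers aminoacyl-tRNA, the eEF1B subunits recharge eEF1A with GTP, and eEF2 moves the ribosome along until eEF2K inhibits it.

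Kidneys were taken from male C57/BLACK6 mice of 7 weeks and about 20 g, all of which received 4-thiouridine (s4U, 200 µM) with 34 µCi of tritiated cytidine by injection into the abdomen. The contralateral group had the left renal artery and vein clamped for 45 min under diethylether. It was injected 1 h and 2 h after reperfusion, and the unclamped kidney was taken at 3 h. The normal group had no clamping, was injected at 0 h and 1 h, and its kidneys were taken at 2 h. No sham operation is described, so surgery, anaesthesia and timing cannot be told apart from the clamping. From each kidney group, 2 arrays carried total RNA, 2 carried amplified total RNA, and 1 carried newly transcribed RNA, the RNA that had taken up s4U. The titles call the arrays biological replicates without saying whether preparations share a mouse, so p-values measure the spread between these arrays only. In whole kidney, fewer cells of a type and less RNA per cell cannot be told apart.

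The preparations differed in how well the 5' ends of transcripts were read. The 3'/5' signal ratio of the Gapdh control probe sets was 0.938 to 1.12 on the 4 total RNA arrays, 4.21 to 6.23 on the 4 amplified arrays, and 12.7 (normal) and 68.9 (contralateral) on the arrays of newly transcribed RNA. The contralateral newly transcribed array was also the dimmest, with a median deposited intensity of 18.6 against 26.6 to 70.25 on the other arrays. The part of brightness and 3' bias in the differences described here was not tested. All 9 kidney markers on the array passed the filter on low values, and 0 of 8 markers of skeletal muscle and nerve did. In amplified total RNA 1 of the 9 kidney markers passed, Lrp2 of the proximal tubule, which fell by 0.59 on the log2 scale in contralateral kidneys (adjusted p = 0.0148). The other 8 differed by -0.16 to 0.48. Cd74, 1 of 4 tested leukocyte markers, rose there by 0.47 (adjusted p = 0.0236). Neither gene passed in unamplified total RNA (-0.22 and 0.14), where the fat markers Fabp4 (0.66, adjusted p = 0.0664), Adipoq (0.51) and Retn (0.01) did not pass either. The part of these genes in the results was not tested.

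Many mRNAs of the translation machinery, those of Eef1a1 and Eef2 among them, are known to begin with an uninterrupted run of pyrimidines, through which their translation follows mTOR. Windows of 40 bases, from 10 bases before to 30 bases after the annotated transcription start, are therefore shown for a few members. Those with a long run are Eef1a1, not called, and the run-bearing genes called lower in newly transcribed against amplified RNA. Members with a run that were not called there, such as Eif3k and Eef1a2 (11 bases each), are not printed. The printed set was picked and does not show how runs and calls go together. All windows were taken from RefSeq's promoter sequences of GRCm38.p6, where 40 of the 50 genes had an entry. Capitals mark the longest unbroken run of C or T on the sense strand. Eef1a1 lies at chr9:78481695-78481734 on the minus strand, Eef2 at chr10:81176621-81176660, Eif3f at chr7:108934405-108934444, Eif3l at chr15:79075213-79075252 and Eif2b5 at chr16:20498807-20498846, these 4 on the plus strand. Eef1b2, at chr1:63176821-63176860 on the plus strand, and Eif4ebp2, at chr10:61452640-61452679 on the minus strand, are set beside them as members without a long run.
Eef1a1: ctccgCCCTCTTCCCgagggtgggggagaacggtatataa
Eef2: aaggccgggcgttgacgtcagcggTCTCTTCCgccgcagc
Eif3f: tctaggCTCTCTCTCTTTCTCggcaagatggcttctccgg
Eif3l: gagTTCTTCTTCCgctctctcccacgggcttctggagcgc
Eif2b5: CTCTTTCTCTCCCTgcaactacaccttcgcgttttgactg
Eef1b2: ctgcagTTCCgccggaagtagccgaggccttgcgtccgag
Eif4ebp2: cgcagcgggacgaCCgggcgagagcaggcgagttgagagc
The runs of Eef1a1, Eif3f, Eif3l and Eif2b5 span the annotated start, that of Eif2b5 from the upstream edge of the window, and that of Eef2 begins at base 15 of the transcript. A run of at least 8 pyrimidines was found in 11 of the 40 members with a window, or 27.5%, and in 4440 of all 27025 genes of the promoter table, or 16.4%. Here and below, a gene with several annotated starts was counted if any of its windows held a run. The table has 32851 windows, and genes differ in their number of windows, so these shares are not strictly alike. Such a match describes the letters at the annotated start and is not a mapped site. Whether a marked run lies in the mRNA, or is the run known for Eef1a1 or Eef2, was not tested.

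The first question was which factors differ between contralateral and normal kidneys in unamplified total RNA. None of the 47 factor genes passed an adjusted p of 0.05 in limma's test, where 1.91% of all 13575 probe sets did, 1.58% higher and 0.331% lower. Unadjusted p-values lay under 0.05 for 3 of 47, and for 14.8% of all probe sets. The median difference of the factors was 0.00 on the log2 scale (24 above and 23 below 0), beside -0.03 over all 8300 genes. The standard error of a difference had a median of 0.126, and the 95% interval lay within 1.5-fold either way for 40 factors and within 2-fold for 46. The exception was the kinase Eif2ak2, known as PKR, whose interval ran from -0.06 to 1.13.

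**Figure D1:**
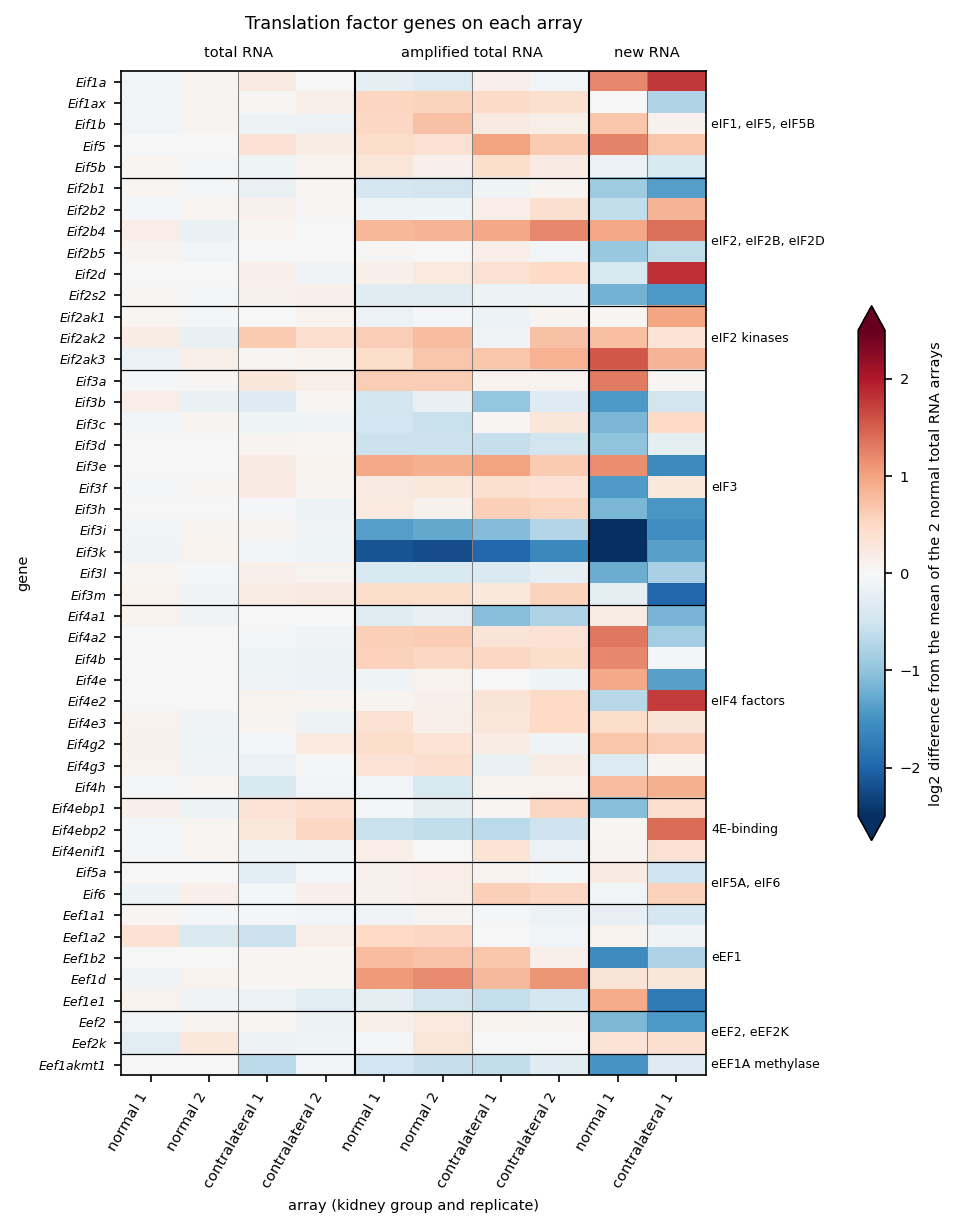
Each row is 1 of the 47 tested genes (brightest probe set), each column 1 array, and the colour is the normalized log2 value minus the mean of the 2 normal total RNA arrays, with colours saturating at 2.5 either way. The total RNA columns stay pale, the amplified columns carry the strong fall of Eif3k, and the 2 newly transcribed columns differ from each other in many rows.

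The factors with the smallest p in total RNA did not pass. Eif4ebp2, a 4E-binding protein, read 8.13 and 8.22 on the normal and 8.44 and 8.69 on the contralateral total RNA arrays, in normalized log2 units (0.39 ± 0.13, limma's standard error; adjusted p = 0.187). Eif5, which triggers GTP hydrolysis by eIF2 at the start codon, read 10.17 and 10.15 against 10.53 and 10.35 (0.27 ± 0.12, adjusted p = 0.309). Eif3a, a core subunit of eIF3, read 9.67 and 9.72 against 9.97 and 9.83 (0.21 ± 0.09, adjusted p = 0.328). In each of the 3 genes the contralateral arrays lay above the normal ones without overlap, although further probe sets of Eif4ebp2 gave -0.38 and -0.14. Such separation was frequent: 13 factors were higher and 11 lower without overlap, or 24 of 47, and 46.6% of all probe sets were separated (22.4% higher and 24.2% lower).

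The factors that carry elongation showed small differences in total RNA. Eef1a1 read 12.30 and 12.21 on the normal and 12.21 and 12.18 on the contralateral arrays, a difference of -0.06 with a 95% interval from -0.24 to 0.12. Eef2 read 11.34 and 11.46 against 11.44 and 11.28, a difference of -0.04 with an interval from -0.24 to 0.16. For both genes the interval leaves out a change of 1.5-fold. Eif5a, which helps the ribosome through difficult peptide stretches, read 11.22 and 11.24 against 10.97 and 11.21 (-0.14, interval from -0.35 to 0.07). Eif4g2, a scaffold related to eIF4G that does not bind eIF4E, read 10.77 and 10.55 against 10.62 and 10.90 (0.10, interval from -0.18 to 0.37). Neither passed, and the arrays of the 2 kidney groups overlapped for Eif4g2 but not for Eif5a. Eef1a2, the eEF1A form of muscle and nerve, was read unevenly (5.83 and 5.11 against 4.93 and 5.63), with an interval from -0.81 to 0.42. Among the kinases of eIF2, Eif2ak1, which responds to heme shortage, differed by 0.04 ± 0.13 and Eif2ak3, the endoplasmic reticulum kinase PERK, by 0.05 ± 0.15. Eif2ak2 differed by 0.53 ± 0.27 (adjusted p = 0.389).

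Taking the 3 preparations together, 0 of 47 factors passed, with a background of 0.442% of all probe sets (0.383% higher and 0.0589% lower). Unadjusted p-values under 0.05 were found for 8 of 47 factors and for 14.6% of all probe sets. The smallest belonged to Eif4ebp1, the best known 4E-binding protein, with a difference of 0.61 ± 0.19 (adjusted p = 0.218). It was higher on every contralateral array than on the normal arrays of the same preparation: 7.37 and 7.46 against 7.17 and 6.90 in total RNA, 7.07 and 7.56 against 7.00 and 6.81 in amplified RNA, and 7.45 against 5.97 in newly transcribed RNA. Eif1b, a close relative of the start codon factor eIF1, had a difference of -0.35 ± 0.12, and the helicase Eif4a1 one of -0.53 ± 0.19 (adjusted p = 0.255 for each). A further probe set of Eif4a1 gave 0.08. By their brightest probe sets the 3 members of the 4E-binding group, with Eif4ebp2 (0.42) and Eif4enif1 (0.02), a transporter of eIF4E, had positive differences and none passed. Other probe sets of Eif4ebp2 reached -0.38 in total, -0.53 in amplified and -0.65 in newly transcribed RNA. The tested probe sets of Eif4ebp1 were positive in each preparation.

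In amplified total RNA, 6 of 47 factors (12.8%) passed the same test, 3 higher and 3 lower, with a background of 10.3% of all probe sets (4.1% higher and 6.22% lower). The share is near that background, and near the 9.0% of all genes when each is represented by its brightest probe set. Of 11 eIF3 subunits 2 rose and 1 fell. Of 9 eIF4 factors 1 fell, and of 5 start codon and subunit joining factors 1 fell. The ribosome subunit factor Eif6 rose, while 0 of 6 eIF2 and eIF2B genes, 0 of 5 eEF1 genes and 0 of 3 eIF2 kinases passed. Here and below, Eif2d is counted with eIF2 and eIF2B by its name, and Eef1e1 with eEF1, though neither is a subunit of these. The factors' median was 0.03, beside 0.04 over all genes.

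The largest rise was that of Eif3c, which binds eIF1 and eIF5 within eIF3. It read 9.53 and 9.44 on the normal amplified arrays and 10.06 and 10.29 on the contralateral ones, a rise of 0.69 ± 0.11 on the log2 scale or 1.615-fold (adjusted p = 0.00222). Eif3h, an outer eIF3 subunit, read 9.88 and 9.73 against 10.23 and 10.17 and rose by 0.40 ± 0.10 (adjusted p = 0.0293). Eif6, which keeps the large ribosomal subunit from joining too early, read 8.85 and 8.88 against 9.34 and 9.25 and rose by 0.43 ± 0.12 (adjusted p = 0.0434). For the 3 genes no contralateral amplified array overlapped a normal one, which held for 17 factors as higher and 12 as lower, and for 54.9% of all probe sets (29.5% higher and 25.5% lower).

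Eif4a1, the main eIF4A helicase, had the largest fall. It read 9.85 and 9.95 on the normal amplified arrays against 9.09 and 9.38 on the contralateral ones, and fell by 0.67 on the log2 scale with a standard error of 0.12 (adjusted p = 0.00462). Eif3a read 10.31 and 10.32 against 9.78 and 9.79 and fell by 0.53, with a standard error of 0.09 (adjusted p = 0.00471). Eif1b read 8.82 and 9.03 against 8.52 and 8.44 and fell by 0.44, with a standard error of 0.12 (adjusted p = 0.0404). Leaving out either normal amplified array, which left 1 array in that group, took away the calls of Eif3h, Eif6 and Eif1b. Eif3a and Eif4a1 lost theirs without the second normal amplified array, and Eif3c kept its call in both refits. The share of all probe sets in these refits is not given here.

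**Figure D2:**
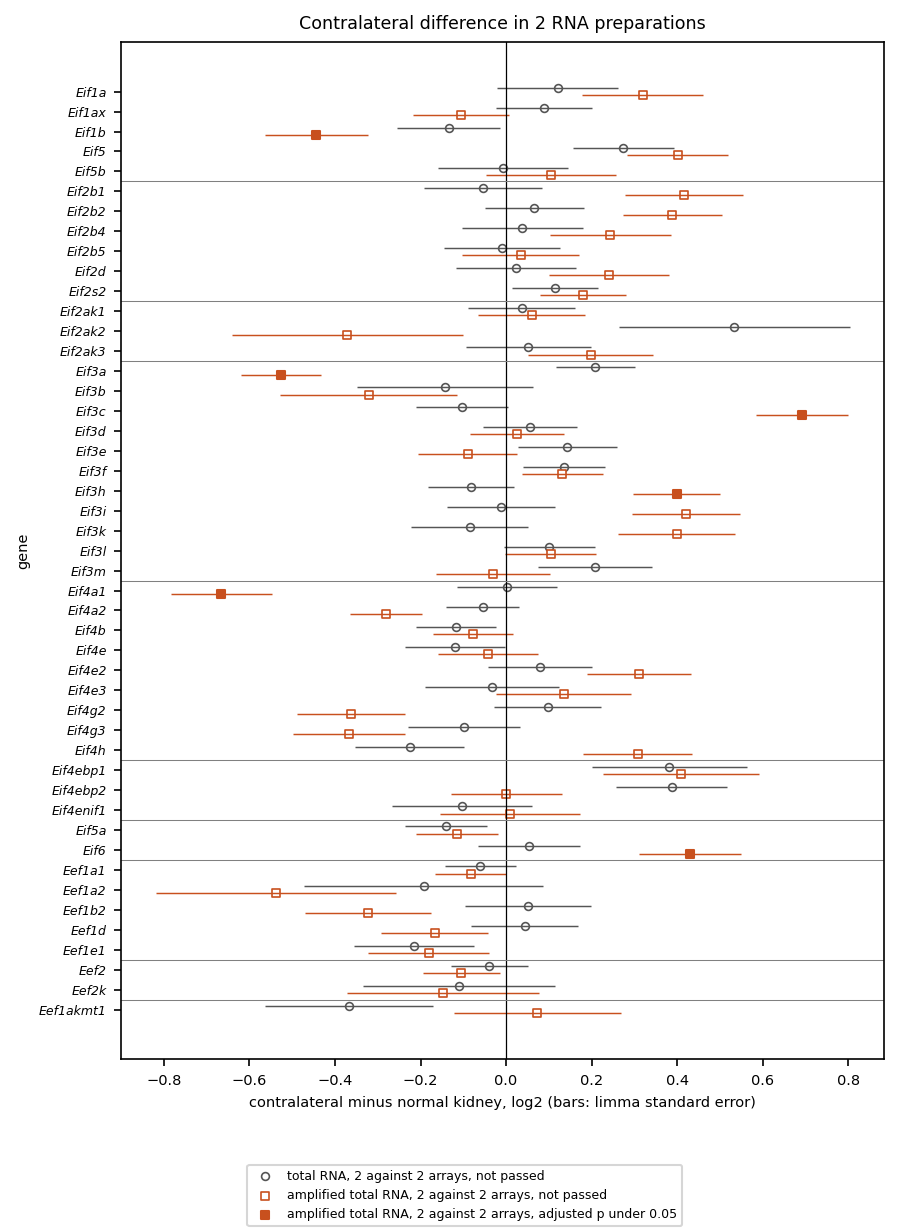
The contralateral minus normal difference of each tested gene on the log2 scale (x axis) in total RNA (grey circles) and amplified total RNA (orange squares), with bars of 1 limma standard error and filled squares for adjusted p under 0.05. No circle is filled, and the 6 filled squares lie on both sides of 0, from -0.67 for Eif4a1 to 0.69 for Eif3c.

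Whether the contralateral difference itself was another one in amplified than in unamplified RNA was tested as an interaction. It passed for 3 of 47 factors (6.38%), 1 higher and 2 lower, with a background of 4.46% of all probe sets (0.641% higher and 3.82% lower). Of all 8300 genes, each represented by its brightest probe set, 2.72% passed. Eif3c differed by 0.69 in amplified and by -0.10 in total RNA, an interaction of 0.80 ± 0.15 (adjusted p = 0.0121). Eif3a differed by -0.53 in amplified and by 0.21 in total RNA (interaction -0.74 ± 0.13, adjusted p = 0.00876), and Eif4a1 by -0.67 and 0.00 (interaction -0.67 ± 0.17, adjusted p = 0.0466). The 6 factors that passed in amplified RNA thus include 3 whose difference was not the same in unamplified RNA. The interaction calls depended on single arrays. All 3 were lost without the second normal amplified array, which left 1 array in that group. Calls were also lost without the second normal or the first contralateral total RNA array. The share of all probe sets in these refits is not given here.

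Other probe sets of these genes did not always go the same way. Eif3c was read by 4 tested probe sets. The brightest, whose identifier ends in _x_at, gave the rise in amplified RNA, while the dimmest fell there by 1.01 (6.93 and 6.97 on the normal against 6.04 and 5.83 on the contralateral arrays, adjusted p = 0.000827). In unamplified total RNA that same probe set rose by 0.65 (8.68 and 8.63 against 9.23 and 9.38, adjusted p = 0.0342), the 1 of 93 factor probe sets that passed there. That ending marks probe sets that can also bind other transcripts, and the direction for Eif3c in amplified RNA depends on the probe set read. For Eif3a 4 of 4 probe sets had negative differences in amplified RNA, 2 of them past the threshold (-0.53 and -1.12). For Eif4a1 the 3 probe sets read -0.67, -0.45 and -0.19, the first past the threshold.

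The newly transcribed RNA had 1 array per kidney group, so its differences have no replicate check and no test. Between these 2 arrays 18 of 47 factors (38.3%) differed at least 2-fold, 10 higher and 8 lower in the contralateral kidney, with a background of 32.8% of all probe sets (14.4% higher and 18.5% lower). The factors' median difference was -0.04, beside 0.06 over all genes. The highest differences were those of Eif3k, an eIF3 subunit (8.40 against 5.91, a difference of 2.49), and of Eif4e2, an alternative cap-binding protein (9.44 against 6.99, a difference of 2.45). They were followed by Eif2d, which can bring tRNA to the ribosome without eIF2 (8.71 against 6.49), and Eif3f (10.13 against 8.45, a difference of 1.68). A dimmer probe set of Eif4e2 went the other way, with a difference of -0.31, and another probe set of Eif2d gave 0.94.

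The lowest differences belonged to Eif3e, an eIF3 subunit (8.33 on the contralateral against 11.09 on the normal array, -2.75), and Eef1e1, a scaffold part of the tRNA synthetase complex (6.15 against 8.84). The cap-binding protein Eif4e read 7.16 against 9.48 (-2.32), and the helicase Eif4a2 read 9.36 against 11.56 (-2.20). Other tested probe sets differed far less, down to -0.10 for Eif3e and -0.43 for Eif4e, so the size depends on the probe set read. Subunits of the same complex lay at both ends: 4 of 11 eIF3 genes were at least 2-fold higher and 3 at least 2-fold lower. Of 9 eIF4 factors 1 was higher and 4 were lower past 2-fold. The 4E-binding proteins Eif4ebp1 (1.48) and Eif4ebp2 (1.35) were both higher past 2-fold, although dimmer probe sets of Eif4ebp2 gave -0.61 and -0.65. The brightest probe set of Eif4b gave -1.23 and another gave 1.11. Replicate SDs of factors in the groups with 2 arrays had medians from 0.0596 to 0.123 and reached 0.575, and no such spread is known for the newly transcribed arrays. Markers of fat also differed between the 2 newly transcribed arrays: Retn (2.65), Adipoq (2.04) and Fabp4 (1.79), the 3 measured of 5 listed, were all higher in the contralateral one. The summed deposited intensity of these fat markers was 649 on the normal and 715.3 on the contralateral newly transcribed array. Those sums are not scaled, and the arrays' medians were 70.25 and 18.6. Fat was not alone: Star of the adrenal (1.47), Cdh16 of kidney (1.04) and Cd74 of leukocytes (1.01) were also higher past 2-fold, and Lrp2 of kidney was lower (-1.26). The part of any of these markers in the factors' differences was not tested.

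Amplification was then asked about by comparing amplified with unamplified total RNA over both kidney groups. Here 13 of 47 factors (27.7%) passed, 8 higher and 5 lower, with a background of 38.4% of all probe sets (20.7% higher and 17.6% lower). The factors' median was 0.16, beside 0.10 over all genes. With arrays scaled to their medians in place of quantiles, which moved the median of all probe sets from 0.04 to 0.20, 17 factors were higher and 2 lower. The share of all probe sets under that scaling is not given here. Among the eIF3 subunits 0 were higher and 4 lower, namely Eif3k, Eif3i, Eif3d (-0.55) and Eif3l (-0.39). Of the start codon and subunit joining factors 3 of 5 were higher, namely Eif5 (0.48), Eif1b (0.48) and Eif1ax (0.44).

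Eif3k had the largest difference of all factors. It read 9.65 to 9.84 on the total RNA arrays and 7.53 to 8.14 on the amplified ones, and fell by 1.95 on the log2 scale with a standard error of 0.36 (adjusted p = 0.00230). Eif3i read 10.51 to 10.67 against 9.22 to 9.86 and fell by 1.11, with a standard error of 0.23 (adjusted p = 0.00384). Eif4ebp2 read 8.13 to 8.69 in total and 7.50 to 7.67 in amplified RNA and fell by 0.79 (adjusted p = 0.0160), and 4 of its 4 probe sets passed as lower. On the rising side were Eef1d, an eEF1B subunit (8.56 to 8.75 against 9.47 to 9.84, 1.02 ± 0.13, adjusted p = 0.000295), and Eif2b4, an eIF2B subunit (7.58 to 7.93 against 8.59 to 8.96, 0.94 ± 0.14, adjusted p = 0.000764). Eif2ak3 (0.65), Eif4b, a helper of eIF4A (0.57), and the eEF1B subunit Eef1b2 (0.56) also rose. All 8 higher and all 5 lower genes had the same sign in normal and in contralateral kidneys. The call over both kidneys makes this likely, so it is no separate check. The count of factors that passed was 5 to 8 when any 1 total or amplified array was left out, and 25 without the newly transcribed arrays. The share of all probe sets in these refits is not given here.

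**Figure D3:**
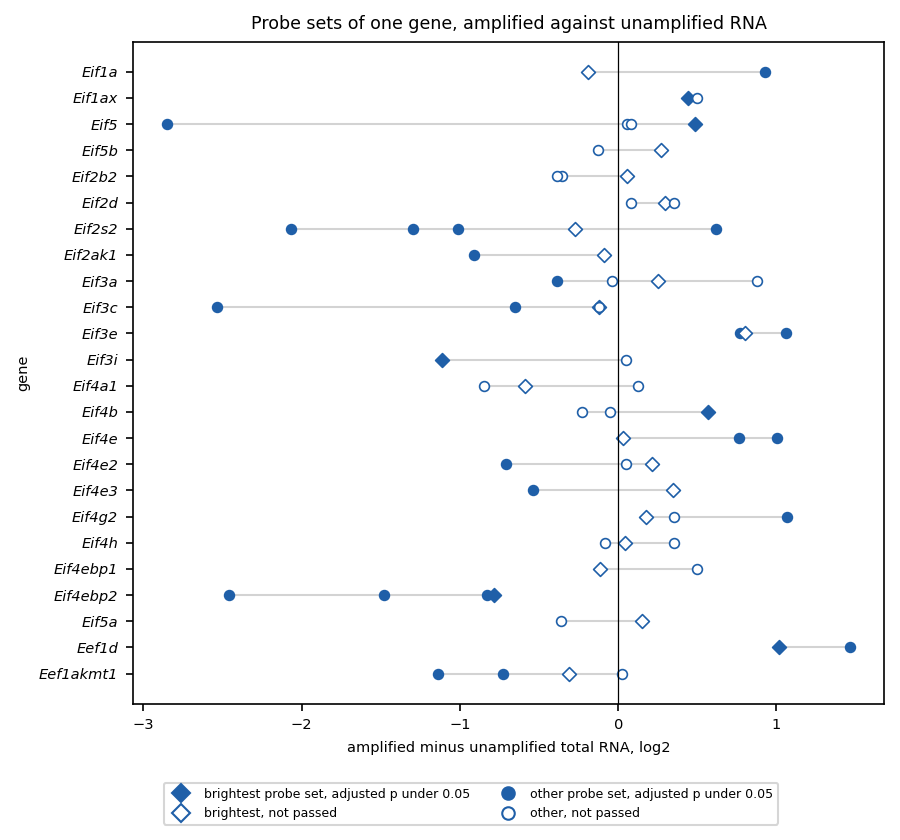
For the 24 genes read by several tested probe sets, each symbol is 1 probe set, placed on the x axis at its amplified minus unamplified total RNA difference (log2); diamonds are the brightest probe set of a gene, and filled symbols have an adjusted p under 0.05. The probe sets of Eif5 stretch from -2.85 to 0.48 and those of Eif2s2 from -2.06 to 0.62, while all 4 of Eif4ebp2 lie below 0.

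Probe sets of one gene often disagreed on the effect of amplification. Of 24 genes with several tested probe sets, 15 had differences of both signs between amplified and unamplified RNA, and 2 had probe sets past the threshold in both directions. One was Eif2s2, the beta subunit of eIF2, where 1 probe set read 9.33 to 9.42 in total RNA and 6.99 to 7.72 in amplified RNA (-2.06), and another read 6.75 to 7.22 against 7.43 to 7.76 (0.62). The other was Eif5, where 1 probe set read 9.97 to 10.37 in total RNA and 6.85 to 7.74 in amplified RNA (-2.85), while the brightest probe set rose by 0.48. In the contralateral comparison of amplified RNA 11 of the 24 genes had differences of both signs, and 1, Eif3c, had calls in both directions. Among the other genes called by their brightest probe set, further probe sets of Eif4b (-0.23 and -0.05) and Eif3i (0.05) had the opposite sign without passing. For some genes whose brightest probe set did not pass, another one did with the opposite sign, among them Eif1a (0.93, adjusted p = 0.000888), Eif4e2 (-0.71, adjusted p = 0.00587) and Eif3a (-0.38, adjusted p = 0.0494). The positions of the probe sets in their transcripts were not analysed here, and the part of 3' bias in these differences was not tested.

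Newly transcribed RNA was last compared with amplified total RNA over both kidney groups. Of 47 factors 16 (34.0%) passed, 3 higher and 13 lower in newly transcribed RNA, with a background of 28.6% (11.9% higher and 16.7% lower). The factors' median was -0.17, beside 0.01 over all genes. Of the 11 eIF3 subunits 0 were higher and 5 lower, with a median of -0.68, and of 6 eIF2 and eIF2B genes 0 were higher and 3 lower. Among the eEF1 genes 0 of 5 were higher and 2 lower, and eEF2 itself was lower. The 9 eIF4 factors held 1 higher and 0 lower gene, and the 3 eIF2 kinases none that passed, with differences from 0.04 to 0.58. These counts use the brightest probe set of each gene, and other probe sets of uncalled eIF4 and kinase genes did pass. They were lower for Eif2ak1 (-0.98) and Eif4e2, and higher for Eif4a1 (0.72) and Eif4e3 (1.25).

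The largest fall was that of Eef1b2, which helps to recharge eEF1A. It read 10.38 and 10.33 on the normal amplified arrays and 8.04 on the normal newly transcribed one, and 10.30 and 9.77 against 8.83 in contralateral kidneys (-1.76 ± 0.24, adjusted p = 0.000809). Eif3h read 9.88 and 9.73 against 8.49 in normal and 10.23 and 10.17 against 8.17 in contralateral kidneys (-1.67 ± 0.18, adjusted p = 0.000351). Eef2 read 11.54 and 11.64 against 10.27, and 11.50 and 11.47 against 9.96 (-1.43 ± 0.12, adjusted p = 0.000154). These falls were seen in both kidney groups, as was the case for 13 of the 13 genes called lower. The call was made over both kidneys together, which makes such agreement likely, so it is no separate check. Of all 47 tested factors 15 were lower and 9 higher in both kidney groups. The other genes called lower were Eif3m, an eIF3 subunit (-1.54), Eif3i (-1.17), Eif2s2 (-1.09), Eif2b1 (-0.90), Eif3f (-0.89), Eif1ax (-0.87), Eif2b5 (-0.83), Eef1d (-0.74), Eif3l (-0.68) and Eif5b (-0.54). Eif3f passed on unequal differences, -1.67 in normal and -0.12 in contralateral kidneys.

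The 3 genes higher in newly transcribed RNA were Eif1a, a copy of the scanning factor eIF1A, Eif4ebp2 and Eif4h, which supports the eIF4A helicase. Eif1a read 7.02 and 6.92 against 8.46 in normal and 7.39 and 7.19 against 9.02 in contralateral kidneys (1.61 ± 0.17, adjusted p = 0.000345). Eif4ebp2 read 7.61 and 7.56 against 8.22, and 7.50 and 7.67 against 9.57 (1.31 ± 0.26, adjusted p = 0.00526). Eif4h rose by 0.90 (adjusted p = 0.00484), and all 3 of its probe sets passed as higher. For genes called in this comparison, further probe sets went the other way without passing for Eef1d (0.60), Eif1ax (0.34), Eif2s2 (0.08), Eif3i (0.05) and Eif4ebp2 (-0.18 and -0.11). Eef1a1, whose window holds the pyrimidine run printed above, had a small negative difference, 12.05 against 12.17 and 12.32 in normal and 11.84 against 12.23 and 12.10 in contralateral kidneys (-0.26 ± 0.10, adjusted p = 0.0817), and did not pass. When any 1 total or amplified array was left out, 14 of 47 factors passed. The count rose without a newly transcribed array, which left 1 such array and took the spread between them out of the fit. The share of all probe sets in these refits is not given here.

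Runs of at least 8 pyrimidines at the annotated start were counted against these calls, a description chosen after the values had been seen. Of the 13 genes called lower 10 had a window and 4 of the 10 (40%) had a run, namely Eef2, Eif3f, Eif3l and Eif2b5. Of the genes not called 25 had a window and 6 (24%) had a run, and of the 2 genes called higher with a window 0 had one. Eef1b2, with the largest fall, has no such run in the window shown.

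**Figure D4:**
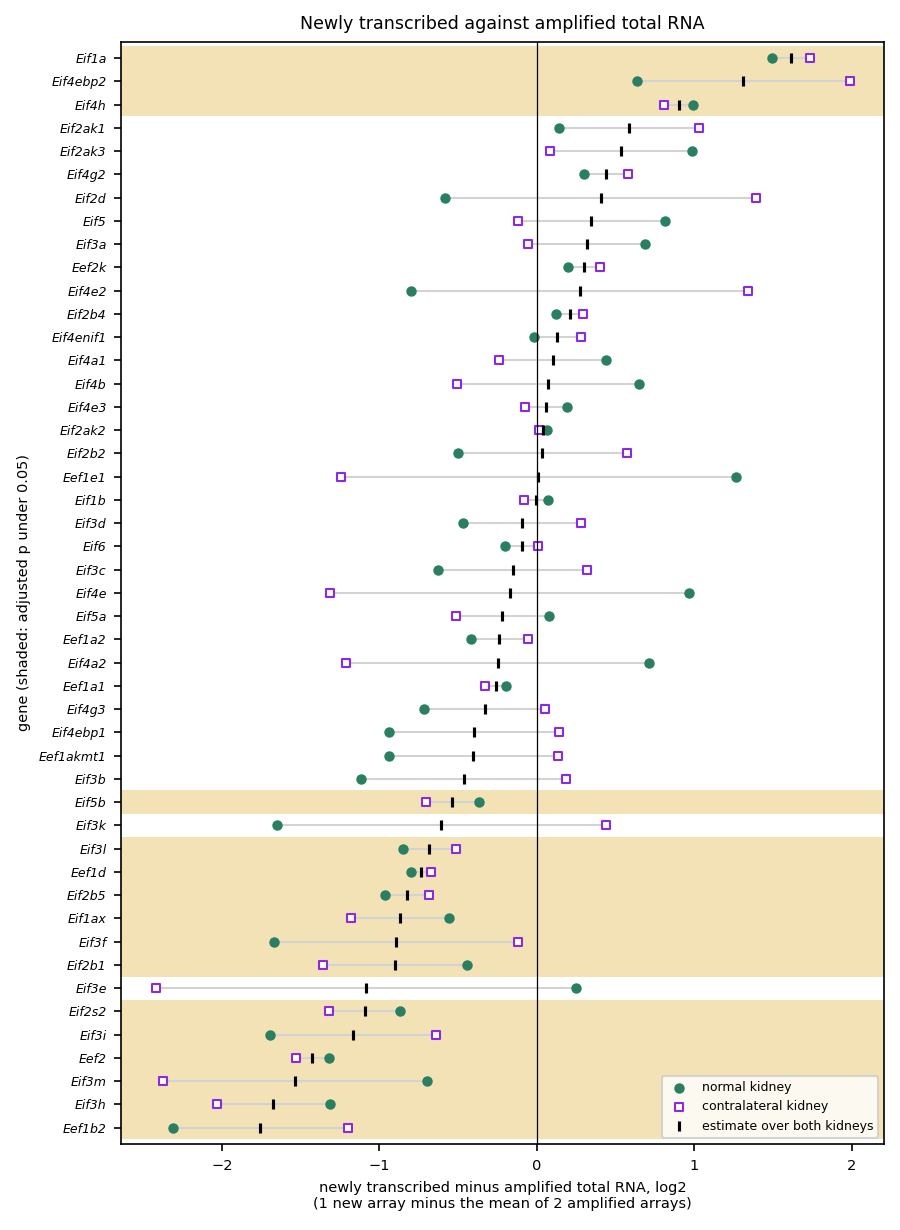
For each of the 47 tested genes the x axis gives newly transcribed minus amplified total RNA (log2), as 1 array minus the mean of 2 amplified arrays, in normal (green circles) and contralateral kidneys (purple squares), with the fitted value over both as a black tick; shaded rows passed an adjusted p of 0.05. The 13 shaded rows below 0 have both symbols below 0, and unshaded rows such as Eif3e and Eef1e1 have widely parted symbols.

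Regulators and partners of these factors that are not named Eif or Eef were taken from a list of 38 genes, of which 32 were on the array and 31 were tested. In total RNA 1 of 31 rose and 0 fell, with a background of 1.58% of all probe sets higher and 0.331% lower. The gene that rose was Ddit4, known as REDD1, which inhibits mTOR under stress: it read 8.16 and 8.17 on the normal and 9.72 and 9.70 on the contralateral arrays, a rise of 1.55 ± 0.11 (adjusted p = 5.45e-05). In amplified RNA Ddit4 rose by 1.20 (adjusted p = 7.97e-05) and Mtor, the kinase that Ddit4 restrains, by 0.62 ± 0.10 (10.04 and 9.88 against 10.52 and 10.63, adjusted p = 0.00245). The release factor gene Gspt1 fell there by 0.67 (8.21 and 8.23 against 7.27 and 7.83, adjusted p = 0.0343). Thus 2 of 31 rose and 1 fell in amplified RNA, where 4.1% of all probe sets were higher and 6.22% lower. The stress response genes Atf4 and Ddit3, which act downstream of phosphorylated eIF2, differed in total RNA by 0.20 ± 0.11 and 0.15 ± 0.20, and neither passed in any tested comparison of the kidney groups. Ppp1r15a, which helps to remove that phosphate, had a difference of 0.55 ± 0.15 over all preparations and did not pass (adjusted p = 0.169).

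In amplified against unamplified RNA 4 of 31 were higher and 3 lower, with the re-initiation factor Denr at 1.40 and the mTOR inhibitor Tsc2 at -1.17. Of all probe sets 20.7% were higher and 17.6% lower in that comparison. In newly transcribed against amplified RNA 8 of 31 were higher and 9 lower, with a background of 11.9% higher and 16.7% lower. The lower ones held 4 factors of mitochondrial translation, Tufm (-1.66), Gfm2 (-0.98), Mtif2 (-0.92) and Gfm1 (-0.86), as well as the poly(A)-binding protein Pabpc1 (-1.10). The higher ones held Dohh (1.41), which modifies eIF5A, and the phosphatase subunit Ppp1r15b (1.38). The partners' median was 0.01.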

How the data were processed

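The members and gene lists were chosen with earlier results of these data known. RNeasy columns were used for the RNA, then a Bioanalyzer, linear amplification and T7-based biotin labelling, per the labels' protocols, which are worded alike for every array. The authors deposited linear intensities, 1 for each probe set on each array. How they were summarised and scaled is not given in the sources used here.

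From the deposited intensities, log2(intensity + 11.8) was computed, 11.8 being the 25th percentile of all values, without 64 control probe sets, followed by quantile normalization. For dim genes, differences of these log2 values come out too small. Probe sets with a mean above the 40th percentile were tested, 13575 in all. Symbols came from the platform annotation, with 1 symbol for 20380 probe sets, several for 691, and 1555 probe sets unlisted and unnamed. The probe set with the highest mean stands for its gene.

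Limma 3.58.1 in R 4.3.3 (lmFit, eBayes with an intensity trend, Benjamini-Hochberg over all probe sets, threshold 0.05) was fitted to all 10 arrays: kidney plus preparation for the comparisons over all preparations and between preparations, 6 group means for the others. Only the newly transcribed difference, 1 array against 1, had no test. The fits were tested on simulated data. Figures were drawn with matplotlib 3.10.9 in Python 3.11.15.

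Per comparison, the genes named in full were those past the threshold, or the 8 with the largest change where more passed, or the 3 with the smallest p where none did; for newly transcribed RNA the 4 highest and 4 lowest; and the highest-signal member of each role. Further called members are given by their difference. Alternatives were pseudocounts of 1 and 50, median scaling, no filter, the mean of a gene's probe sets, no trend, only the arrays compared, a replicate block, each array left out, and, chosen after seeing the data, normalization and fit without the newly transcribed arrays. The number of arrays limits the precision.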

Additional observations from a re-analysis of the deposited data

Results flagged for a closer look

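For 3 genes the contralateral difference was not the same in amplified as in unamplified total RNA, by limma's interaction test. Eif3c had an interaction of 0.80, with a difference of 0.69 in amplified and -0.10 in unamplified RNA, while another probe set of the gene passed with the opposite sign in both. Eif3a had an interaction of -0.74, with -0.53 in amplified and 0.21 in unamplified RNA. Eif4a1 had an interaction of -0.67, with -0.67 in amplified and 0.00 in unamplified RNA. Of all probe sets 4.46% passed this test, and 2.72% of all genes by their brightest probe set.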

How the results depend on the processing

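The counts of 0 factors in total RNA and over all preparations held under every alternative run, and the count past 2-fold in newly transcribed RNA ran from 13 to 19. Leaving out 1 array at a time gave 1 to 8 factors for the contralateral difference in amplified RNA, 0 to 3 for the interaction, 5 to 25 for amplified against unamplified RNA and 14 to 32 for newly transcribed against amplified RNA. In amplified RNA 3 passed with no intensity trend and 3 with only the arrays compared. For the interaction 0 passed with no intensity trend and 1 with the mean of a gene's probe sets. Under that mean 10 passed in newly transcribed against amplified RNA, and the interaction of Eif3c reversed to -0.15 (adjusted p = 0.679). In amplified against unamplified RNA 25 passed with only the arrays compared and 25 without the newly transcribed arrays, whose spread otherwise enters the fit. Shares of all probe sets under the alternatives are not given here, so these counts have no background of their own.

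Deviations of same-numbered arrays correlated from -0.0701 to 0.0998 over 6 pairs of groups, which does not show a pairing and does not settle whether preparations share a mouse. With a replicate block 8 factors passed in amplified against unamplified RNA, 7 in the contralateral comparison of amplified RNA, 3 in the interaction and 14 in newly transcribed against amplified RNA. Of 621 alternative values of the 39 named results, 536 kept direction and side of the threshold, 84 kept the direction only and 1 reversed. Eif1b lost its call in amplified RNA in 12 of 19 alternatives, Eif6 and Eif3h in 9 each, and the interaction of Eif4a1 in 12. In amplified RNA Eif4a1 lost its call in 2, Eif3a in 1 and Eif3c in 1 (Eif3c: 0.10 to 0.81, adjusted p up to 0.616). In amplified against unamplified RNA Eif4b lost its call in 11 of 19 (0.10 to 0.97, adjusted p up to 0.552) and Eef1b2 in 10. The cause of these losses was not tested.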
